A study of Mus musculus with 9 samples.

Results

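The genes described here are those of the small basic proteins that take over spermatid DNA from the histones, the transition protein genes *Tnp1* and *Tnp2* and the protamine genes *Prm1* and *Prm2*, together with their neighbour *Prm3*. The rule was a list of names and used no measured value, but the list was drawn up with earlier results of these data known. They are 5 of the 32035 mouse genes with a transcript in the deposited tables. RNA of whole testes was sequenced from 3 wild-type (WT) males, 3 *Kpna6*ΔIBB/ΔIBB males and 3 *Kpna6*-/- males, all 15 weeks old and backcrossed to C57Bl6/N. *Kpna6* codes for importin α7, an adaptor that carries proteins with a nuclear localization signal into the nucleus. In *Kpna6*ΔIBB/ΔIBB mice exon 2 is deleted, which leaves a truncated protein without the importin β binding (IBB) domain. *Kpna6*-/- mice carry a gene trap in intron 1, and by the study's account a testis-specific first exon lets their germ cells, but not their Sertoli cells, make the full-length protein. Each library is 1 whole testis sample with all its cell types, so that in these libraries fewer spermatids and less RNA per spermatid cannot be told apart. In sorted round spermatids, the study reports lower *Tnp1*, *Tnp2*, *Prm1* and *Prm2* mRNA in *Kpna6*ΔIBB/ΔIBB by real-time PCR.

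In round and elongating spermatids, histones are removed from the chromatin and transition proteins bind the DNA for a short time, before protamines replace them and pack the sperm nucleus. The mRNAs of both families are made in round spermatids and stored without translation until the nucleus elongates. Their transcription depends on CREM, a factor that binds cyclic AMP response elements in spermatids. PRM1 and PRM2 are the protamines of mouse sperm chromatin, whereas *Prm3* codes for an acidic protein found outside the chromatin.

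In the annotation used (GENCODE M21, GRCm38), *Tnp1* lies alone on chromosome 1 at 73015074-73015909. The other 4 genes lie together on chromosome 16, where the stretch from *Tnp2* to the main transcript of *Prm1* runs from 10787936 to 10796886 and spans 8.95 kb, in the order *Tnp2*, *Prm3*, *Prm2*, *Prm1*. All 5 are read from the minus strand. Because the 5 genes are all spermatid genes and 4 of them are neighbours, 120 bases at the start of each gene are shown, to let a reader see what the promoters have in common. For *Tnp1*, *Tnp2*, *Prm2* and *Prm3* these are the bases just before the GENCODE start, and for *Prm1*, whose RefSeq and GENCODE starts lie 63 bases apart, the stretch ends between both starts. They are RefSeq sequences of GRCm38.p6 on the minus strand, from chr1:73015910-73016029 (*Tnp1*), chr16:10788661-10788780 (*Tnp2*), chr16:10796857-10796976 (*Prm1*), chr16:10792106-10792225 (*Prm2*) and chr16:10790915-10791034 (*Prm3*). Capitals mark 2 kinds of motif, chosen after the sequences had been seen and searched on both strands: TGANNTCA, the cyclic AMP response element with any bases in its middle, and the TATA letters TATAAA or TATATA.
*Tnp1*: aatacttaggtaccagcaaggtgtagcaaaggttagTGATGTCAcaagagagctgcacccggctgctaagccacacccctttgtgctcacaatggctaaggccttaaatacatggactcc
*Tnp2*: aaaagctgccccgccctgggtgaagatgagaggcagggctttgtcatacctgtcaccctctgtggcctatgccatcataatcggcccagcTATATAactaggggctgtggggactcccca
*Prm1*: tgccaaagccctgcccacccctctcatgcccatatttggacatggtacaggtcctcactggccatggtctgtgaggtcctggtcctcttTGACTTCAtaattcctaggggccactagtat
*Prm2*: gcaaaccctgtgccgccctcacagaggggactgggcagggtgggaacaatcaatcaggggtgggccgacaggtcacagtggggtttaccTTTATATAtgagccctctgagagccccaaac
*Prm3*: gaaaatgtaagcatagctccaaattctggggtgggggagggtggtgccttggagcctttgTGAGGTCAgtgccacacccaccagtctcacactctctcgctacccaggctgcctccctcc
The stretches of *Tnp1* (TGATGTCA), *Prm1* (TGACTTCA) and *Prm3* (TGAGGTCA) each hold 1 match to TGANNTCA. Among 32817 mouse promoter windows of 250 bases, 11.9% hold such a match, and 1.55% hold the full element TGACGTCA, which none of the 5 windows has. *Tnp2* and *Prm2* hold TATATA, found in 5.25% of windows, and *Prm2* also TATAAA on the other strand, found in 12.4% and overlapping its TATATA. *Prm1* has CTATAA (7.26% of windows) 33 bases before its RefSeq start, beyond the printed stretch, whose last 30 bases lie inside the first exon of the longer GENCODE transcript. The *Prm1* match to TGANNTCA starts at -64 from the RefSeq start. It therefore lies, but for its first base, inside that exon, and upstream only of the RefSeq start. No single motif was shared by all 5 windows.

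The libraries held 24859751 to 31484692 estimated counts on genes. *Kpna6* itself was at 201, 325 and 334 counts-per-million (CPM, scaled between libraries by TMM) in the WT testes, at 81.2, 85.3 and 81.8 in *Kpna6*ΔIBB/ΔIBB and at 247, 249 and 262 in *Kpna6*-/-. It was lower by 1.79 ± 0.15 (log2, SE) in *Kpna6*ΔIBB/ΔIBB than in WT (edgeR quasi-likelihood test, adjusted p = 1.94e-05), and at -0.18 ± 0.14 in *Kpna6*-/- (adjusted p = 0.586). The estimates per transcript differed between the lines, but such estimates are uncertain where transcripts overlap. *Kpna6-202*, which starts at the upstream first exon, had 76.2, 104 and 97.3 unscaled CPM in WT, 64.0 to 66.3 in *Kpna6*ΔIBB/ΔIBB and 50.8 to 54.3 in *Kpna6*-/-. *Kpna6-201*, which starts at a first exon further downstream, had 120 to 228 in WT, 187 to 202 in *Kpna6*-/- and 18.0 to 22.6 in *Kpna6*ΔIBB/ΔIBB. These estimates differ in part from the study's account. By RT-PCR it found no transcript with the upstream first exon in *Kpna6*-/- testis, where counts were assigned to *Kpna6-202* here. For *Kpna6*ΔIBB/ΔIBB testes it reports strongly lower *Kpna6* mRNA, as was seen here, and no transcription from the testis-specific first exon. The reason for the difference was not tested.

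Defining markers of spermatids were present in all 9 testes, as were those of Sertoli cells. One library stood apart: the third *Kpna6*ΔIBB/ΔIBB testis held 170 TPM (transcripts-per-million) of 7 epididymis-enriched genes, mainly *Crisp1* (77.0 TPM) and *Spink8* (81.3 TPM), against 5.3 to 18.9 TPM in the other 8 testes, while *Lcn5* was at 0 in every library. It was also the library with the lowest CPM of all 5 genes, so the fold changes, shares, ratios and list counts of *Kpna6*ΔIBB/ΔIBB are also given without it. The part of these transcripts in the results was not tested.

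The transition protein and protamine mRNAs were the most abundant messages of every testis. *Prm1* ranked first and *Prm2* second by TPM in all 9 libraries, and *Tnp1* and *Tnp2* took the next places. The lowest of these 4 genes stood 1.92 to 3.57 times above the next gene (*Gm28661*, *Gm29216* or the mitochondrial gene *mt-Co1*). *Prm3* was far lower, at rank 75 to 114. TPM divides counts by the effective length, which for such short mRNAs is much smaller than the full length (157 to 166 of 437 bases for *Tnp1*, 338 to 348 of 621 bases for *Prm2*). By counts alone the ranks were 1 or 2 for *Prm2*, 3 to 8 for *Prm1*, 5 to 10 for *Tnp2*, 13 to 43 for *Tnp1* and 1789 to 2468 for *Prm3*. Thus the place of *Prm1* above *Prm2* holds per effective length, and reverses in every testis when reads are counted without length.

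*Tnp1*, whose product is the more abundant transition protein of mouse spermatids, was at 14966, 15167 and 13032 TPM in the WT testes. In *Kpna6*ΔIBB/ΔIBB it was at 11228, 10726 and 9278 TPM, and in *Kpna6*-/- at 15236, 15380 and 14786 TPM. Every *Kpna6*ΔIBB/ΔIBB testis lay below every WT and every *Kpna6*-/- testis. *Tnp2*, which codes for the second transition protein, was at 12937, 13766 and 12796 TPM in WT, 13108, 12157 and 10640 TPM in *Kpna6*ΔIBB/ΔIBB, and 15427, 13446 and 12951 TPM in *Kpna6*-/-. Here 1 *Kpna6*ΔIBB/ΔIBB testis was as high as the WT testes on the TPM scale.

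*Prm1* was at 25089, 22537 and 19020 TPM in WT, with the widest spread among WT testes of the 5 genes. It was at 19878, 19468 and 17238 TPM in *Kpna6*ΔIBB/ΔIBB and at 22433, 23286 and 23088 TPM in *Kpna6*-/-. The third WT testis thus fell among the *Kpna6*ΔIBB/ΔIBB testes and below all *Kpna6*-/- testes. *Prm2*, the protamine made as a longer precursor that is cut after it binds DNA, was at 17614, 17299 and 15498 TPM in WT, 14491, 15163 and 13499 TPM in *Kpna6*ΔIBB/ΔIBB, and 17127, 16826 and 17903 TPM in *Kpna6*-/-. Its *Kpna6*ΔIBB/ΔIBB values were all below its WT and *Kpna6*-/- values. *Prm3* was at 1176, 1066 and 1139 TPM in WT, 982, 915 and 945 TPM in *Kpna6*ΔIBB/ΔIBB, and 1099, 1108 and 1195 TPM in *Kpna6*-/-, again without overlap between *Kpna6*ΔIBB/ΔIBB and the other groups. Its level had the smallest spread within *Kpna6*ΔIBB/ΔIBB testes, a coefficient of variation of 3.0% of TMM-scaled CPM against 6.1 to 10.7% for the other 4 genes.

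**Figure D1:**
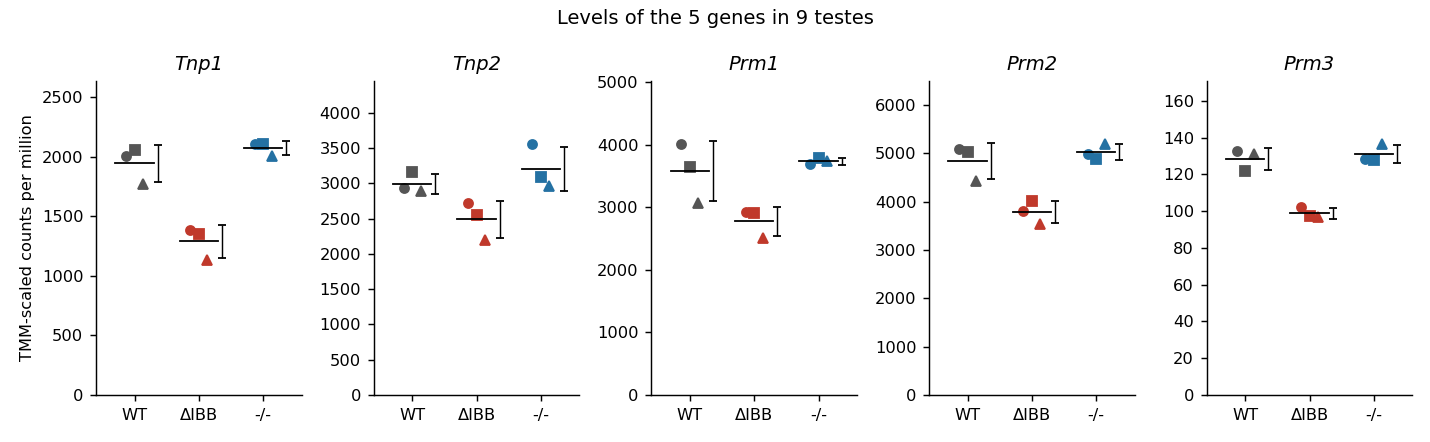
Level of each gene in TMM-scaled CPM (linear axes from 0, 1 panel per gene), by group: WT, *Kpna6*ΔIBB/ΔIBB (ΔIBB) and *Kpna6*-/- (-/-). Points are single testes (circle, square and triangle for replicates 1, 2 and 3), horizontal lines the means and bars the SD of 3 testes. On this scale all 3 ΔIBB testes lie below all WT and all -/- testes in every panel. Separation of 3 from 3 testes has an exact permutation p of 0.1, and the share of all genes so separated is not given here.

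Each of the 5 mRNAs was less abundant in *Kpna6*ΔIBB/ΔIBB than in WT testes. The comparison asks whether these mRNAs differ where germ cells and Sertoli cells both lack full-length importin α7. The difference was largest for *Tnp1*, with 1945 ± 155 CPM in WT and 1288 ± 138 CPM in *Kpna6*ΔIBB/ΔIBB (mean ± SD, n = 3 each), and a log2 fold change of -0.59 ± 0.07 (SE, adjusted p = 0.00016), or 33.5% less. *Tnp2* changed least, from 2995 ± 140 to 2489 ± 265 CPM, with a log2 fold change of -0.26 ± 0.06 (adjusted p = 0.00903). The protamine genes lay close together between them: *Prm1* at -0.36 ± 0.08 (adjusted p = 0.00714), *Prm2* at -0.35 ± 0.05 (adjusted p = 0.000646) and *Prm3* at -0.37 ± 0.05 (adjusted p = 0.000175), which is 21.5 to 22.8% less. All 5 of 5 genes passed the test, and lower levels passed it for 18.9% of the 18797 genes tested (36.6% in either direction). Their rank among all genes was therefore moderate: 5.75% of genes tested had a lower fold change than *Tnp1*, and 13.1 to 19.6% had one lower than the other 4.

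Without the third *Kpna6*ΔIBB/ΔIBB testis, all 5 genes still passed the test, at -0.50 for *Tnp1*, -0.18 for *Tnp2*, -0.29 for *Prm1*, -0.30 for *Prm2* and -0.36 for *Prm3*. Scaling mattered more. With library size only, the median log2 fold change of all genes moved from 0.01 to 0.11 and that of *Tnp2* to -0.16 (adjusted p = 0.0591), while the other 4 genes still passed. On log2(TPM + 1) values tested with limma, *Tnp2* (-0.14, adjusted p = 0.182) and *Prm1* (-0.23, adjusted p = 0.128) did not pass. No direction changed for any of the 5 genes in this comparison.

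In *Kpna6*-/- testes, none of the 5 mRNAs passed the test against WT. The log2 fold changes were 0.09 ± 0.05 for *Tnp1*, 0.10 ± 0.06 for *Tnp2*, 0.06 ± 0.07 for *Prm1*, 0.05 ± 0.05 for *Prm2* and 0.03 ± 0.05 for *Prm3* (SE, adjusted p from 0.423 to 0.838). In this comparison 1.6% of all 18681 genes passed. Single unadjusted p-values for the 5 genes were 0.0877 to 0.565, and the values of both groups overlapped for each gene. For *Prm1*, *Prm2* and *Prm3* the sign of these small differences depended on single testes: without the third WT testis *Prm1* was at -0.035 and *Prm2* at -0.0081, and *Prm3* was at -0.0095 without the second WT testis and just below 0 without the third *Kpna6*-/- testis.

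Set directly against each other, the lines differed in all 5 mRNAs by edgeR. This comparison uses none of the WT testes. By the study's account, germ cells have only truncated protein in *Kpna6*ΔIBB/ΔIBB and keep the full-length protein in *Kpna6*-/-. Sertoli cells differ too, with truncated protein in *Kpna6*ΔIBB/ΔIBB and none in *Kpna6*-/-. The libraries hold all cell types. Of the marker genes used below, 12 of 12 for Sertoli cells were higher in *Kpna6*ΔIBB/ΔIBB than in *Kpna6*-/-, and 9 of 10 for round spermatids were lower. These counts were 12 and 5 with limma on log2(TPM + 1) values, and 9 and 9 with an effective length offset. *Tnp1* was lower in *Kpna6*ΔIBB/ΔIBB by 0.69 ± 0.06 on the log2 scale (adjusted p = 8.72e-06). *Prm1* was lower by 0.43 ± 0.05 (adjusted p = 4.89e-05), *Prm2* by 0.41 ± 0.04 (adjusted p = 2.11e-05), *Prm3* by 0.41 ± 0.04 (adjusted p = 2.24e-05) and *Tnp2* by 0.37 ± 0.07 (adjusted p = 0.00292). On log2(TPM + 1) values tested with limma *Tnp2* did not pass (-0.22, adjusted p = 0.108), and its TPM values overlapped between the lines. Without the third *Kpna6*ΔIBB/ΔIBB testis all 5 still passed, with *Tnp1* at -0.60, *Tnp2* at -0.28, *Prm1* at -0.36, *Prm2* at -0.36 and *Prm3* at -0.39. Lower levels passed the test for 16.8% of the 18752 genes tested, and 30.3% passed in either direction. *Tnp1* was again the gene with the lowest value of the 5, and 2.85% of genes tested had a lower one. Since both comparisons use the same *Kpna6*ΔIBB/ΔIBB testes, the place of *Tnp1* as the lowest and *Tnp2* as the highest value in both is not independent evidence.

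**Figure D2:**
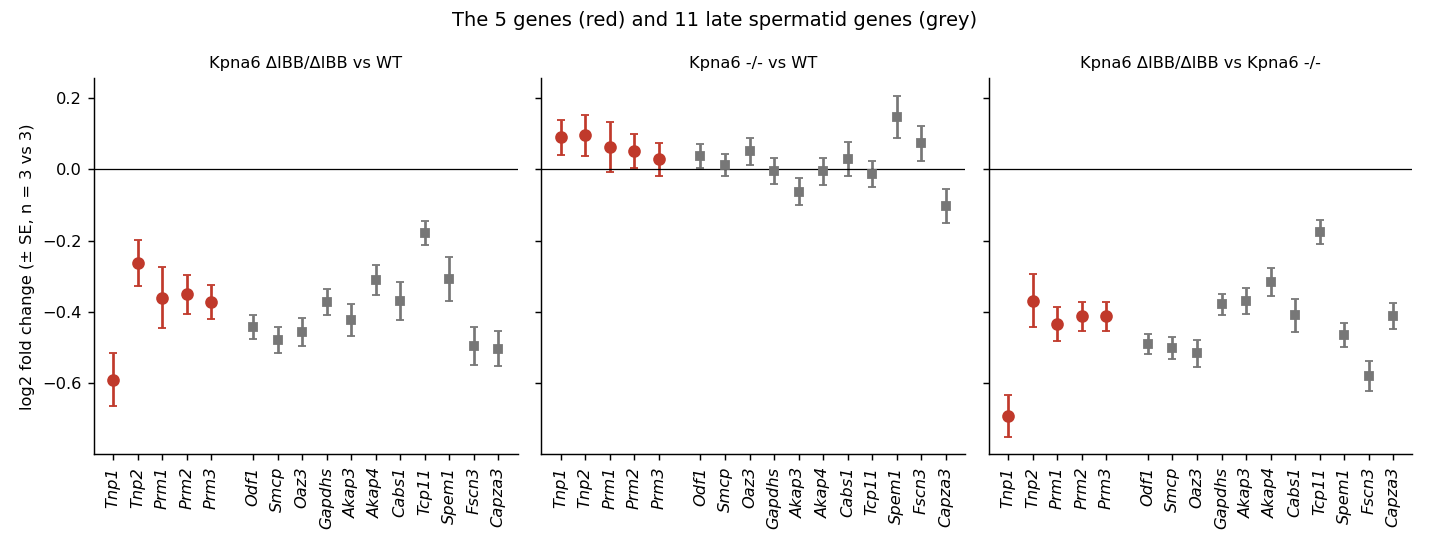
Log2 fold change with its SE (edgeR, 3 against 3 testes) of the 5 genes (red circles) and of 11 other late spermatid genes (grey squares) in the 3 comparisons, 1 panel each. In both panels with *Kpna6*ΔIBB/ΔIBB, all red and grey points lie below 0, and *Tnp1* (-0.59 against WT, -0.69 against *Kpna6*-/-) is the lowest point, whereas in the middle panel (*Kpna6*-/- against WT) the points scatter around 0.

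The 5 genes together took up a large and variable share of each library. Of all TPM on genes they made up 7.27, 7.08 and 6.24% in the WT testes, 6.04, 5.91 and 5.24% in *Kpna6*ΔIBB/ΔIBB and 7.23, 7.10 and 7.08% in *Kpna6*-/-. The 3 *Kpna6*ΔIBB/ΔIBB shares were the lowest of the 9, and the third WT testis came next. The mean difference of *Kpna6*ΔIBB/ΔIBB from WT was -1.13 percentage points, and -1.41 from *Kpna6*-/-, each at p = 0.1 (two-sided exact permutation test, the smallest p that 3 against 3 testes allow, adjusted p = 0.2 over 18 shares and comparisons). Without the third *Kpna6*ΔIBB/ΔIBB testis the difference was -0.89 points from WT and -1.17 from *Kpna6*-/-. Between *Kpna6*-/- and WT it was 0.28 points, at an exact permutation p of 0.7.

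Because the mRNAs are short, their share of the counts was much smaller. It was 1.39, 1.35 and 1.20% in WT, 1.15, 1.14 and 0.992% in *Kpna6*ΔIBB/ΔIBB and 1.41, 1.38 and 1.38% in *Kpna6*-/-, in the same order of groups. Single genes took 1.46 ± 0.12% (*Tnp1*), 1.33 ± 0.05% (*Tnp2*), 2.25 ± 0.31% (*Prm1*), 1.70 ± 0.11% (*Prm2*) and 0.114 ± 0.006% (*Prm3*) of TPM in WT (mean ± SD, n = 3). In *Kpna6*ΔIBB/ΔIBB these shares were 1.05 ± 0.10%, 1.21 ± 0.12%, 1.91 ± 0.14%, 1.46 ± 0.08% and 0.096 ± 0.003%. For *Tnp1*, *Prm2* and *Prm3* the *Kpna6*ΔIBB/ΔIBB and WT shares did not overlap (exact permutation p = 0.1 each), and for *Tnp2* and *Prm1* they did (p = 0.3 each, exact permutation test). Shares are not scaled between libraries, and as TMM-scaled CPM the WT and *Kpna6*ΔIBB/ΔIBB values of *Tnp2* and *Prm1* did not overlap.

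**Figure D3:**
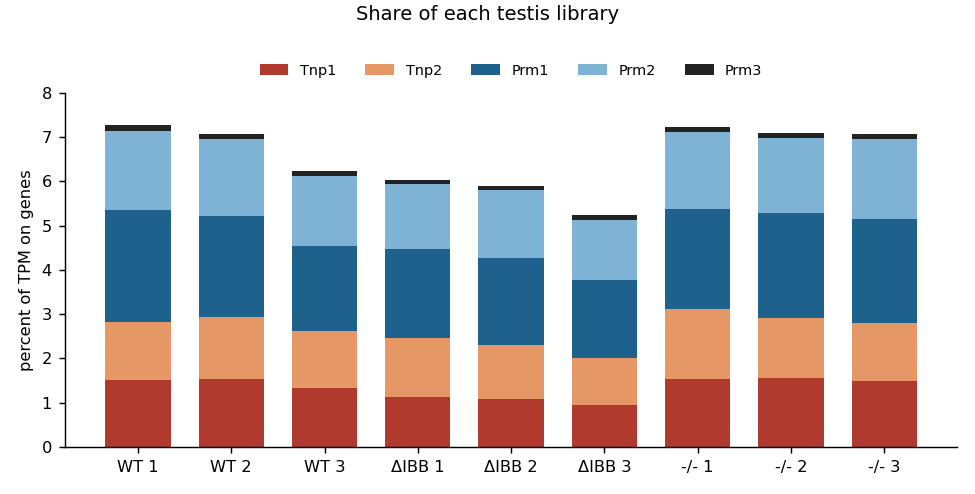
Share of TPM on genes taken by the 5 genes (stacked bars, percent, axis from 0) in each of 9 testes, with replicate numbers. Bars reach 6.24 to 7.27% in WT, 5.24 to 6.04% in ΔIBB (*Kpna6*ΔIBB/ΔIBB) and 7.08 to 7.23% in -/- (*Kpna6*-/-); the *Tnp1* part shrinks most in ΔIBB and *Prm3* is the thin black cap.

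Within the libraries, *Tnp1* was low relative to the other mRNAs in *Kpna6*ΔIBB/ΔIBB, although the exact permutation test of 3 against 3 testes cannot go below p = 0.1. A ratio of 2 genes within 1 library does not depend on scaling between libraries. *Tnp1* stood at 1.16, 1.10 and 1.02 TPM per TPM of *Tnp2* in WT, at 0.857, 0.882 and 0.872 in *Kpna6*ΔIBB/ΔIBB and at 0.988, 1.14 and 1.14 in *Kpna6*-/-. All *Kpna6*ΔIBB/ΔIBB ratios were therefore below 1 and below every ratio of the other groups, and all WT ratios were above 1. On the log2 scale the difference was -0.33 ± 0.05 (SE) from WT and -0.32 ± 0.07 from *Kpna6*-/-, each at the smallest exact permutation p of 0.1 (adjusted p = 0.429 over 30 ratios and comparisons). *Kpna6*-/- and WT differed by less than 0.01. Without the third *Kpna6*ΔIBB/ΔIBB testis the differences from WT and *Kpna6*-/- were -0.33 and -0.32.

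*Tnp1* per *Prm1* was 0.596, 0.673 and 0.685 in WT, 0.565, 0.551 and 0.538 in *Kpna6*ΔIBB/ΔIBB and 0.679, 0.660 and 0.640 in *Kpna6*-/-. *Tnp1* per *Prm2* was 0.850, 0.877 and 0.841 in WT, 0.775, 0.707 and 0.687 in *Kpna6*ΔIBB/ΔIBB and 0.890, 0.914 and 0.826 in *Kpna6*-/-. In both ratios the *Kpna6*ΔIBB/ΔIBB testes lay below all others, with log2 differences from WT of -0.24 ± 0.07 and -0.24 ± 0.06 (SE, exact permutation p = 0.1 each), and from *Kpna6*-/- of -0.26 ± 0.03 and -0.28 ± 0.07 (exact permutation p = 0.1 each). Without the third *Kpna6*ΔIBB/ΔIBB testis these differences were -0.22 and -0.21 from WT, and -0.24 for both from *Kpna6*-/-. *Tnp1* per *Prm3* was lower by 0.22 ± 0.12 in *Kpna6*ΔIBB/ΔIBB than in WT, but there the groups overlapped (exact permutation p = 0.2), and without the third *Kpna6*ΔIBB/ΔIBB testis, or without the second WT testis, the difference was -0.14. It was lower by 0.29 ± 0.10 than in *Kpna6*-/-, without overlap (exact permutation p = 0.1), and by 0.21 without the third *Kpna6*ΔIBB/ΔIBB testis.

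The ratio of *Prm1* to *Prm2* mRNA, the pair whose proteins fill the sperm nucleus, was 1.42, 1.30 and 1.23 in WT, 1.37, 1.28 and 1.28 in *Kpna6*ΔIBB/ΔIBB and 1.31, 1.38 and 1.29 in *Kpna6*-/-. The log2 difference between *Kpna6*ΔIBB/ΔIBB and WT was -0.01 ± 0.07 (SE, exact permutation p = 1). None of the 6 ratios without *Tnp1* differed by more than 0.11 on the log2 scale in any comparison, with SEs of 0.05 to 0.14 and exact permutation p-values of 0.2 to 1, and at the larger SEs a shift as large as that of *Tnp1* per *Prm1* would not have been told from none. *Tnp2* per *Prm1*, for instance, was 0.516, 0.611 and 0.673 in WT and 0.659, 0.624 and 0.617 in *Kpna6*ΔIBB/ΔIBB. The sum of both transition protein genes made up 38.9, 41.4 and 42.0% of the TPM of the 5 genes in WT, 40.8, 39.2 and 38.6% in *Kpna6*ΔIBB/ΔIBB and 43.0, 41.2 and 39.7% in *Kpna6*-/-, and these ranges overlapped.

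**Figure D4:**
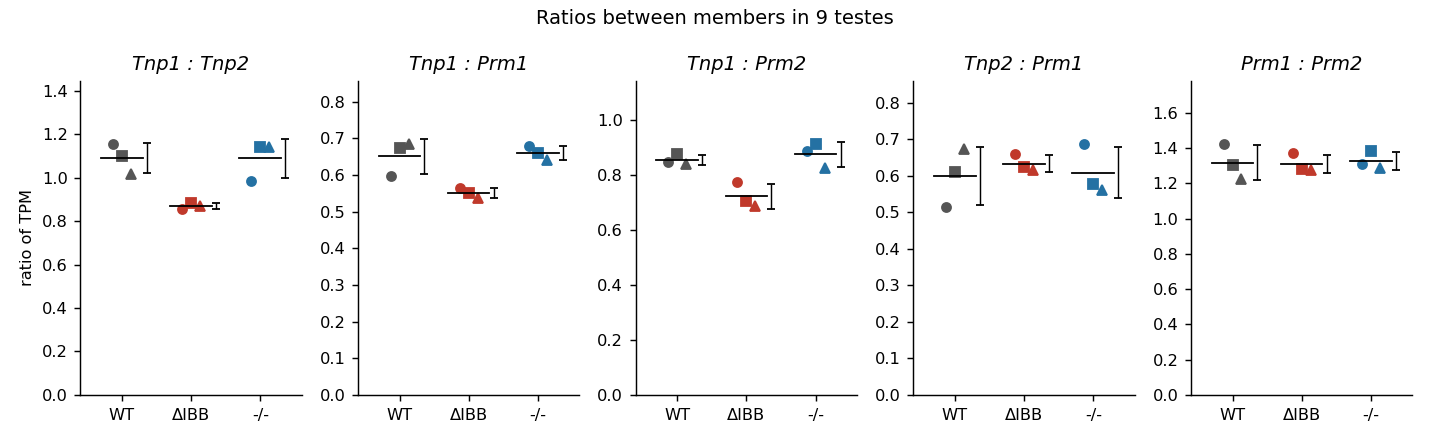
Ratio of TPM between pairs of the 5 genes in each testis (points, with shapes for replicates 1 to 3), with the mean (line) and SD (bar) of 3 testes per group, on axes from 0. ΔIBB (*Kpna6*ΔIBB/ΔIBB) testes lie below all others in the 3 panels with *Tnp1* on top, at 0.857 to 0.882 for *Tnp1* per *Tnp2*, and lie among the others for *Tnp2* per *Prm1* and *Prm1* per *Prm2*.

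Other mRNAs of late spermatids were lower to a similar degree. A list of 11 genes for parts of the spermatid that are not chromatin had all 11 lower in *Kpna6*ΔIBB/ΔIBB than in WT, with a median log2 fold change of -0.42 and a range of -0.50 to -0.18, beside a median of 0.01 over all genes. The lowest were *Capza3* (-0.50) and *Fscn3* (-0.50), which code for actin-binding proteins, and *Smcp* (-0.48), which codes for a protein of the sperm mitochondrial capsule. *Tnp1* lay below this range and the other 4 genes inside it. In *Kpna6*ΔIBB/ΔIBB against WT, 10 of the 11 passed with an effective length offset and 9 on log2(TPM + 1) values. In *Kpna6*-/- none of the 11 passed against WT, at a median of 0.01. The summed level of the list was 12286 to 12856 TPM in WT, 10320 to 10784 in *Kpna6*ΔIBB/ΔIBB and 12429 to 12784 in *Kpna6*-/-.

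Per TPM of this list, *Tnp1* was at 1.22, 1.18 and 1.03 in WT, 1.07, 0.995 and 0.899 in *Kpna6*ΔIBB/ΔIBB and 1.20, 1.20 and 1.19 in *Kpna6*-/-. The log2 difference of *Kpna6*ΔIBB/ΔIBB was -0.21 ± 0.10 (SE) from WT, with overlap (exact permutation p = 0.2), and -0.28 ± 0.07 from *Kpna6*-/- without overlap (exact permutation p = 0.1). For *Tnp2* the difference from WT was 0.12 ± 0.09, and for *Prm1*, *Prm2* and *Prm3* it was 0.01 to 0.04 (exact permutation p = 0.3 to 0.9, adjusted p = 1 over 15 values). With all 9 testes, the groups were separated after this scaling for *Tnp1* against *Kpna6*-/- and for no other gene or comparison. Single testes mattered here: without the third *Kpna6*ΔIBB/ΔIBB testis the *Tnp1* difference was -0.14 from WT and -0.21 from *Kpna6*-/-, and that of *Tnp2* from WT was 0.19, without overlap (exact permutation p = 0.1), whereas without the first *Kpna6*ΔIBB/ΔIBB testis it was 0.044.

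Genes that mark round spermatids moved the same way. Of 10 such genes, 9 were lower in *Kpna6*ΔIBB/ΔIBB than in WT and 1 did not pass (median -0.46), led by the sperm ion channel gene *Catsper3* (-0.72), *Izumo1* (-0.61), needed for fusion with the egg, and the acrosomal gene *Acrv1* (-0.58). The number lower was 8 with library size only and 7 on log2(TPM + 1) values. Markers of other cell types ran differently. Higher levels in *Kpna6*ΔIBB/ΔIBB than in WT passed the test for 17.7% of all genes. Sertoli cell genes rose for 12 of 12 (median 0.59), led by *Amh* (1.78), *Fshr* (1.35) and *Trf* (0.92), and their summed level was 1032 to 1145 TPM in WT, 1636 to 2001 in *Kpna6*ΔIBB/ΔIBB and 1234 to 1314 in *Kpna6*-/-. In *Kpna6*-/- 2 of the 12, *Aard* (0.32) and *Clu* (0.25), were higher than in WT. All these levels are relative to the rest of each library. By real-time PCR of adult testes, the study found no significant difference for *Rhox5*, *Wt1*, *Clu*, *Gata1* or *Cldn11*. It also counted fewer Sertoli cells per tubule in adults of both lines. Spermatocyte genes split, with 1 of 10 higher (*Dmc1*, 0.40) and 3 lower (*Msh4*, *Spo11* and *Sycp2*, -0.24 to -0.13), but with library size only 2 were higher and none lower. Of 10 spermatogonial genes, 4 were higher, led by *Dmrt1* (0.41), and *Gfra1* was lower (-0.50). The number higher was 7 with library size only and 2 with an effective length offset. Leydig cell genes were higher for 2 of 7 (*Lhcgr* and *Hsd3b1*; neither passed with DESeq2), peritubular and endothelial genes for 3 of 6 (*Acta2*, *Tagln* and *Myh11*, with *Vwf* lower) and macrophage genes for 2 of 5 (*Cd68* and *Mrc1*; 1 of 5 with DESeq2 or without the third *Kpna6*ΔIBB/ΔIBB testis, and 5 of 5 with library size only). The part of these cell types in the lower *Tnp* and *Prm* levels was not tested.

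**Figure D5:**
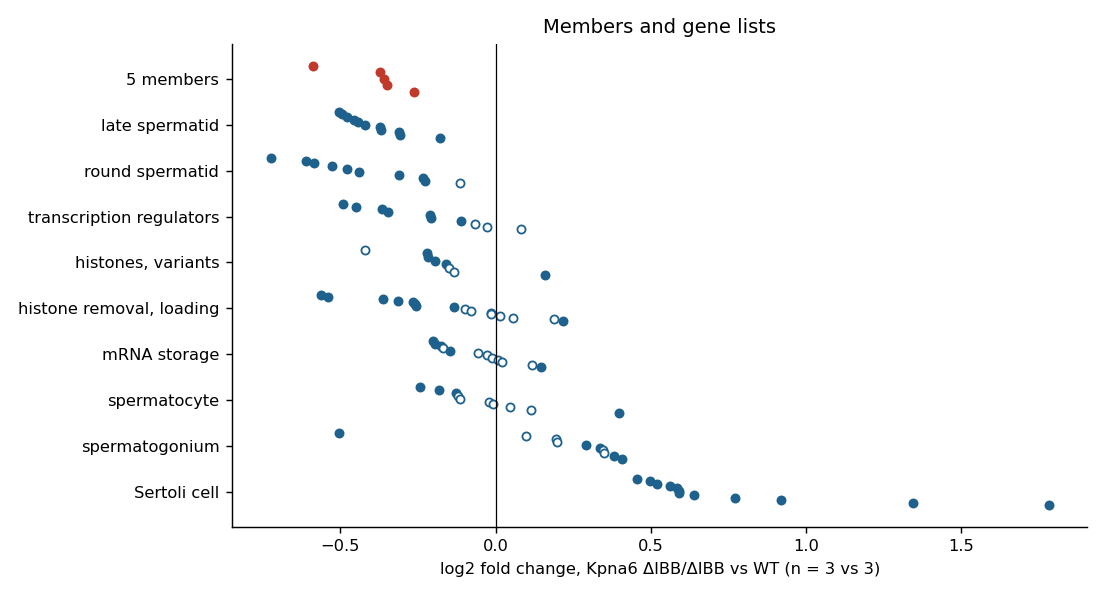
Log2 fold change in *Kpna6*ΔIBB/ΔIBB against WT (edgeR, 3 against 3 testes, x axis) of the 5 genes (red) and of the genes of 9 lists (blue), 1 point per gene and 1 row per list. Filled points passed the test at an adjusted p below 0.05 and open points did not. The members and both spermatid lists lie left of 0, the Sertoli cell list lies right of 0 from 0.46 to 1.78, and the other 6 lists plotted lie on both sides.

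The regulators of transcription in spermatids were partly lower as well. Of 10 such genes, 7 were lower in *Kpna6*ΔIBB/ΔIBB than in WT and 3 did not pass (median -0.21). *Fhl5*, which codes for ACT, a coactivator of CREM, was at -0.49, *Crem* itself at -0.45 ± 0.04 (265 TPM in WT and 209 TPM in *Kpna6*ΔIBB/ΔIBB) and the spermatid factor gene *Sox30* at -0.37. The number lower was 5 of 10 with library size only and 3 of 10 on log2(TPM + 1) values, where the sign of *Kdm3a*, a histone demethylase gene that was the least changed of the 7, turned. Against *Kpna6*-/-, *Crem* was lower by 0.39 ± 0.05 (adjusted p = 0.000105). In *Kpna6*-/- against WT none of the 10 passed.

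The histones and variants that the transition proteins replace gave a weaker and mixed picture. Of 8 genes, 4 were lower in *Kpna6*ΔIBB/ΔIBB than in WT, the H3.3 genes *H3f3a* (-0.22) and *H3f3b* (-0.20) and the spermatid linker histone genes *Hils1* (-0.22) and *H1fnt* (-0.16). *H2al2a*, a variant that opens nucleosomes to transition proteins, was higher (0.16), and 3 did not pass. With library size only 2 of 8 were lower, and on log2(TPM + 1) values none were.

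Among 16 genes for histone removal and for loading and modifying transition proteins and protamines, 8 were lower in *Kpna6*ΔIBB/ΔIBB, 1 was higher and 7 did not pass (median -0.12). With library size only 7 were lower and 2 higher, and on log2(TPM + 1) values 4 were lower and 2 higher. *Camk4*, whose kinase phosphorylates protamine 2, was at -0.56 ± 0.06, at a low level of 6.14 TPM in WT and 4.53 TPM in *Kpna6*ΔIBB/ΔIBB. *Brwd1*, a chromatin reader gene needed in spermatids, was at -0.54 ± 0.07, also at a low level (6.35 and 5.13 TPM). *Tssk6*, a kinase gene of spermatids, was at -0.36, and the topoisomerase gene *Top2b* was higher (0.22). *Hspa2*, whose chaperone delivers transition proteins to DNA, was at -0.01 ± 0.05 (adjusted p = 0.856), with 585 TPM in WT and 630 TPM in *Kpna6*ΔIBB/ΔIBB. *Camk4* and *Brwd1* were also lower than in *Kpna6*-/-, by 0.55 and 0.30.

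The genes that store and translate these mRNAs changed little as a group. Of 12 genes, 4 were lower in *Kpna6*ΔIBB/ΔIBB than in WT, *Paip2* (-0.20), *Papolb* (-0.19), *Paip2b* (-0.18) and the helicase gene *Ddx25* (-0.15 ± 0.04), 1 was higher (*Celf1*, 0.15) and 7 did not pass (median -0.04). *Ybx2*, whose product holds *Prm1* mRNA in store, was at 0.01 ± 0.03 (adjusted p = 0.887) and *Tarbp2*, needed for its translation, at 0.02 ± 0.04 (adjusted p = 0.727). This count turned with the scaling: with library size only 4 genes were higher and 1 was lower, the sign of *Paip2b* turned on log2(TPM + 1) values, and that of *Celf1* turned with an effective length offset. In *Kpna6*-/- against WT no gene of these 3 lists passed.

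Without the third *Kpna6*ΔIBB/ΔIBB testis the spermatid counts were the same, with 11 of 11 late and 9 of 10 round spermatid genes lower, and 12 of 12 Sertoli cell genes higher. The lists of regulators, histones, loading factors and storage factors then had 6, 4, 8 and 3 genes lower.

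Few annotated genes lie near the members. Wholly within 200 kb of *Tnp1*, 2 annotated genes were tested, and *Igfbp2* (distance 162600 bases), which codes for a binding protein of insulin-like growth factors, was higher in *Kpna6*ΔIBB/ΔIBB than in WT by 0.75 ± 0.17 (adjusted p = 0.00483). Near the chromosome 16 group 3 genes were tested, of which 2 were lower and none was higher. Of all genes tested, 18.9% were lower and 17.7% higher, so such small counts say little about the place. *Socs1*, a suppressor of cytokine signalling that lies 2400 bases from *Tnp2* on the same strand, was lower by 0.46 ± 0.12 (adjusted p = 0.0126) at 6.12 TPM in WT and 4.85 TPM in *Kpna6*ΔIBB/ΔIBB. *Gm10343*, a processed pseudogene on the opposite strand inside a long *Prm1* transcript that the files do not list, was lower by 0.72 ± 0.24 (adjusted p = 0.0384) at 20.0 and 13.0 TPM. None of these passed in *Kpna6*-/- against WT.

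Each gene was read almost wholly from 1 transcript. The second *Prm2* transcript, *Prm2-202*, took 0.400 to 0.549% of *Prm2* counts, and the other 4 genes had 1 transcript each in the files. No other gene of the annotation shared 100 bases or more at 95% identity with a member transcript. The library kit is not stated to keep strand, and the annotated opposite-strand gene *1700027A15Rik*, whose span covers *Tnp1*, is not among the quantified transcripts. Any of its reads that fall on *Tnp1* exons could not be told from those of *Tnp1*. Whether the exons of both genes overlap was not tested. With 2672 counts at the least (*Prm3*) the counting error was 1.93% or lower for every gene and testis, below the spread between testes.

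Over all 9 testes, the genes whose profiles were most like those of the members were other genes of moderate level. Likeness was the root mean square difference between log2(CPM + 1) profiles, each centred on its own mean, among 10478 genes with a mean of at least 10 CPM. For *Tnp1* the nearest were *Lexm* (0.061), *Tex37* (0.069) and *Gm498* (0.071), and for *Tnp2* *Naa60* (0.045), *Tuba1c* (0.050) and *Spata32* (0.055). *Prm1* was nearest to *Paqr5* (0.047), *Tmem56* (0.055) and *Klk1b8* (0.056), *Prm2* to *Cystm1* (0.030), *Fam71f2* (0.050) and *Nup35* (0.050), and *Prm3* to *Rab3il1* (0.035), *Pifo* (0.039) and *Ccdc188* (0.042). The members were not each other's nearest genes: *Prm2* ranked 5 for *Prm1*, *Prm1* ranked 21 for *Prm2*, and the difference between *Tnp1* and *Tnp2* was 0.168, at rank 464 seen from *Tnp1*.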

How the data were processed

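Total RNA of whole testes was sequenced in triplicate per group. The authors quantified transcripts with kallisto, version 0.45 in the submitters' processing notes, on the mm10 assembly, and which release of the transcripts they used is not given in the sources used here. They deposited estimated counts, not normalized between libraries, and TPM values, which kallisto scales within each library by effective length.

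Of 96626 transcripts, 95301 were assigned to 32035 genes by GENCODE M21 identifiers and 1325 were left out. Estimated counts and TPM were summed per gene, and the counts were rounded. Pairs of groups (3 against 3 testes) were tested with edgeR 4.0.16 in R 4.3.3 (TMM, filterByExpr, quasi-likelihood test, Benjamini-Hochberg adjustment over all genes tested, threshold 0.05), in place of the study's sleuth, which needs resampled estimates not used here. Ratios, shares and levels relative to late spermatid genes were tested by two-sided exact permutation over 20 arrangements, whose smallest p is 0.1, with adjustment over 30, 18 and 15 values. Alternatives were DESeq2 1.42.0, limma 3.58.1 on log2(TPM + 1) and log2(TPM + 0.1), other scalings, no filter, an effective length offset (added after seeing the data), the replicate number as a block and leaving out each testis. The fits were tested on simulated data. Nothing says which replicate testes came from separate litters, and the p-values treat the testes of a group as independent samples.

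Shared sequence was sought with blastn 2.17.0. Members and gene lists were chosen with earlier results of these data known. Genes named are the 5 members and *Kpna6*, up to 3 per direction and list with the largest fold change in *Kpna6*ΔIBB/ΔIBB against WT among those with an adjusted p below 0.05 and at least 1 TPM, 7 genes always given, neighbours within 200 kb that passed, and the 3 genes most like each member; a few others were named after their values were seen.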

Additional observations from a re-analysis of the deposited data

Results flagged for a closer look

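All 5 genes differed between the effects of the lines, by the direct test of *Kpna6*ΔIBB/ΔIBB against *Kpna6*-/- testes (edgeR, 3 against 3). Of the 18752 genes tested, 30.3% passed this test in either direction and 16.8% with lower levels. The log2 difference was -0.69 for *Tnp1* (-0.59 in *Kpna6*ΔIBB/ΔIBB and 0.09 in *Kpna6*-/-, each against the same WT testes), -0.37 for *Tnp2* (-0.26 and 0.10), -0.43 for *Prm1* (-0.36 and 0.06), -0.41 for *Prm2* (-0.35 and 0.05) and -0.41 for *Prm3* (-0.37 and 0.03). With 3 testes a group, no test for outlying testes was made.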

How the results depend on the processing

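Over all alternatives, no member changed direction in *Kpna6*ΔIBB/ΔIBB against WT or *Kpna6*-/-, and *Tnp1* and *Prm3* passed the test in every fit of both comparisons. Against WT, *Tnp2* no longer passed with library size only (-0.16) or with limma on TPM (-0.14 at either pseudocount and without a filter), *Prm1* with limma on TPM (-0.23 in all 3 forms) and *Prm2* with limma without a filter (-0.22). Against *Kpna6*-/-, *Tnp2* did not pass with limma on TPM (-0.22 in all 3 forms). The cause was not tested. In *Kpna6*ΔIBB/ΔIBB testes set against WT, library size only gave 5416 genes up and 2326 down, TMM 3327 up and 3547 down, and limma on log2(TPM + 1) 3873 and 1581.

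Leaving out single testes turned the sign of small differences that had passed no test. Against WT, the *Kpna6*-/- log2 fold changes ranged from -0.035 to 0.15 for *Prm1*, -0.0081 to 0.088 for *Prm2* and -0.0095 to 0.052 for *Prm3*, the *Tnp1* to *Tnp2* log2 ratio from -0.053 to 0.067, and the summed share of TPM from -0.036 to 0.48 points. In *Kpna6*ΔIBB/ΔIBB against WT the *Prm1* to *Prm2* log2 ratio ranged from -0.056 to 0.051, and the levels relative to late spermatid genes from -0.080 to 0.14 (*Prm1*), -0.024 to 0.088 (*Prm2*) and -0.046 to 0.057 (*Prm3*). Relative to round spermatid genes instead, *Prm3* was at -0.0054, and with counts in place of TPM the *Tnp1* to *Tnp2* log2 ratio in *Kpna6*-/- against WT was at 0.0020. In *Kpna6*ΔIBB/ΔIBB against WT, leaving out a testis cost no member its call.

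With the replicate block, *Tnp1* was at -0.59, *Tnp2* at -0.27, *Prm1* at -0.35, *Prm2* at -0.35 and *Prm3* at -0.37 in *Kpna6*ΔIBB/ΔIBB against WT, and all 5 passed. The calls for the members did not change in the other comparisons, and the ratios then had an exact permutation p of 0.25 or more, the smallest that 3 pairs allow. The labels do not say whether the numbers pair the testes. Deviations of same-numbered testes correlated at -0.05 to 0.11. However, the summed share of TPM of the 5 genes fell from replicate 1 to 3 in each group. With the block the SE of *Tnp1* in *Kpna6*ΔIBB/ΔIBB against WT was 0.03, and without it 0.07.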
